A study of Mus musculus with 4 samples.

Results

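The genes described here are the kallikreins of the epidermis, with the inhibitor, the activator and a target that belong to the same system of skin shedding. They are 10 genes, fixed by name, though chosen with earlier results of these data known: Klk5, Klk6, Klk7, Klk8, Klk10, Klk13, Klk14, Spink5, St14 and Cdsn. All 10 were found among the 39179 genes of the count files, and all 10 were among the 16651 genes that passed the filter on low counts. Skin RNA of C57BL/6 mice was sequenced in 4 libraries. In 2 the mice were wild type (WT), and in the other 2 the skin was lesional and the mice lacked Itch, a ubiquitin ligase of the Nedd4 family (Itch knockout). Inflammation is the labelled phenotype of every sample, also of WT, and the labels do not give the allele, the age or the sex of the mice, the body site, or whether each library stands for a different mouse. P-values therefore measure only the spread between these libraries, which may be technical.

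Kallikreins are secreted serine proteases encoded side by side in a cluster. In the outer epidermis, KLK5 and KLK7 are known for cutting the corneodesmosomes, the protein rivets between dead cornified cells, so that these cells can be shed. Corneodesmosin, the product of Cdsn, is one of the proteins they cut. LEKTI, the product of Spink5, is a multidomain inhibitor of these proteases, and its loss causes Netherton syndrome in people. Matriptase, the product of St14, is a membrane-bound serine protease known for starting the activation of kallikreins in skin that lacks LEKTI.

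Gene reads per library numbered between 15144957 and 16008351, and levels are given as CPM (counts scaled to library size, after TMM scaling between libraries). Paired values are in the order replicate 1, replicate 2. Itch stood at 96.7 and 103 CPM in the WT replicates, against 11.7 and 11.7 CPM in the knockout replicates, each on the side of its label. Xist, the RNA that coats the silent X, measured 1055 and 631 CPM in the WT pair against 0.947 and 0.892 CPM in the knockout pair, so that genotype and sex cannot be told apart here. The 8 keratinocyte markers all had reads in each library and summed to 12616 and 14527 CPM in WT and 12158 and 14317 CPM in the knockouts. WT replicate 1 stood apart. Its 10 hair follicle markers, led by the inner root sheath keratin Krt71, summed to 78.2 CPM, against 7879.7 CPM in WT replicate 2 and 5923 and 8664 CPM in the knockouts, and its 8 skeletal muscle markers summed to 14049 CPM, against 2391, 1108 and 925 CPM. Every one of these follicle and muscle markers had reads in every library. Fold changes below are therefore also given without each WT library. In such a fit only the knockout pair gives a spread, and the single WT library left is assumed to vary as they do.

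The 10 genes did not move as a block. The knockouts both exceeded the WT pair for 3 members (Klk6, Klk13 and Klk14), where 31.2% of all tested genes did so. They lay below both WT libraries for 3 members (Klk5, Spink5 and Cdsn), where 30.0% of tested genes did so. For the other 4 (Klk7, Klk8, Klk10 and St14) the groups overlapped, as for 38.8% of tested genes. These counts were near the background in each direction. No member passed an adjusted p under 0.05 in edgeR's quasi-likelihood test with Benjamini-Hochberg adjustment over all genes, a threshold that 0.00601% of tested genes passed. At an unadjusted p under 0.05 there was 1 member higher in the knockouts, Klk14, and 2 lower, Spink5 and Klk5, where 12.0% and 10.9% of tested genes were called in those directions. DESeq2 called 1 member higher (Klk14, adjusted p = 0.0186) and 1 lower (Spink5, adjusted p = 0.0158), against 7.99% and 6.28% of the genes it tested. The median log2 fold change of the members (knockout over WT) was 0.15, beside 0.01 over all tested genes. It was -0.39 without WT replicate 1 and 0.90 without WT replicate 2.

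**Figure D1:**
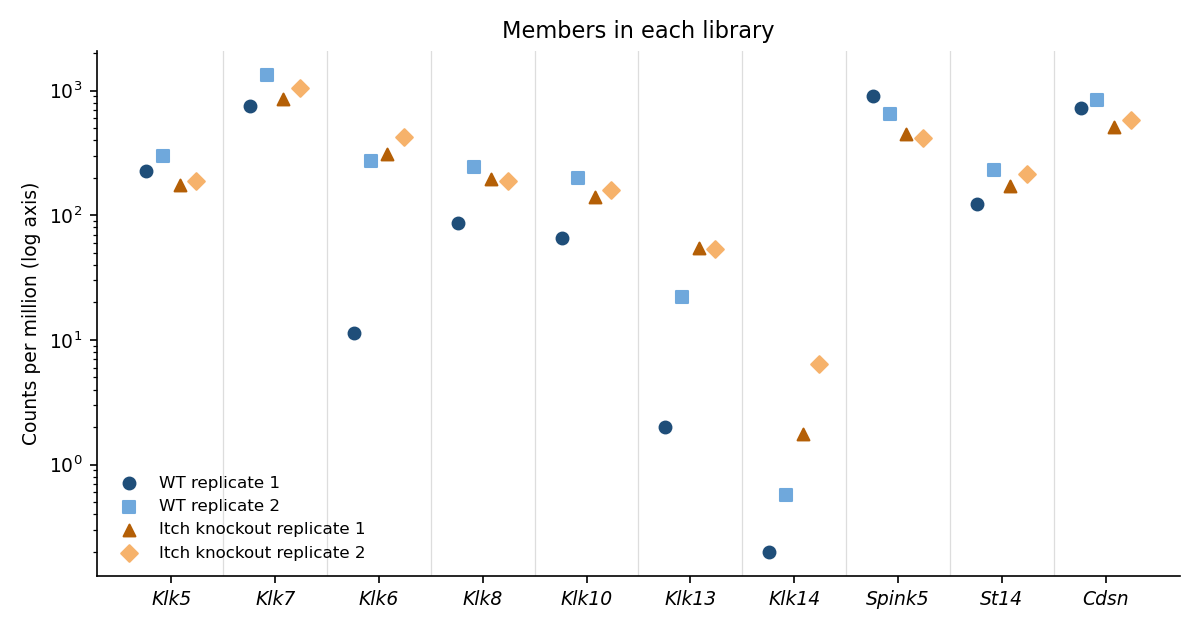
Level of each member in each library, in CPM on a log axis, with 1 point per library. Klk6 and Klk13 lay far lower in WT replicate 1 than in the other 3 libraries, and for Klk5, Spink5 and Cdsn both knockout points lay below both WT points.

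Klk5 and Klk7 are the principal shedding proteases, of trypsin-like and chymotrypsin-like specificity. Klk5 (ENSMUSG00000074155, GRCm38 chromosome 7, 43841971 to 43851181, plus strand) measured 228 and 299 CPM in the WT pair against 174 and 188 CPM in the knockout pair. Both knockout values were below both WT values, with a log2 fold change of -0.54 (SE 0.20, edgeR unadjusted p = 0.0452, adjusted p = 0.211). Without WT replicate 1 the change was -0.73 and the adjusted p in edgeR was 0.0433, and without WT replicate 2 the change was -0.33 with an adjusted p of 0.152. Klk7 (ENSMUSG00000030713, chromosome 7, 43811294 to 43816359, plus strand) measured 751 and 1342 CPM in the WT pair against 853 and 1046 CPM in the knockout pair. Both knockout values lay between the WT values, so no direction could be given (log2 fold change -0.14, SE 0.34, edgeR adjusted p = 0.827). The estimate was -0.50 without WT replicate 1 and 0.34 without WT replicate 2.

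Klk6, Klk8 and Klk10 encode secreted kallikreins of the upper epidermis. Klk8, also called neuropsin, has been described in skin as well as in the brain. Klk6 (ENSMUSG00000050063, chromosome 7, 43824499 to 43832030, plus strand) stood at 11.3 CPM in WT replicate 1 (169 reads) and 273 CPM in WT replicate 2 (4332 reads), against 307 and 423 CPM in the knockout pair. The WT libraries thus differed 24.3-fold from each other, while WT replicate 2 lay close under the lower knockout library. The log2 fold change of 1.36 had an SE of 1.40 (edgeR adjusted p = 0.587). It was 0.41 without WT replicate 1 (adjusted p = 0.358) and 5.02 without WT replicate 2 (adjusted p = 0.000497), so the size of this difference rested on which WT library was used.

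Klk8 (ENSMUSG00000064023, chromosome 7, 43797577 to 43803826, plus strand) measured 86.1 and 245 CPM in the WT pair against 196 and 188 CPM in the knockout pair. Klk10 (ENSMUSG00000030693, chromosome 7, 43781035 to 43785410, plus strand) measured 65.6 and 199 CPM in the WT pair against 139 and 159.9 CPM in the knockout pair. In both genes the low library was WT replicate 1 and the high library WT replicate 2, with the knockouts in between. Their log2 fold changes were 0.21 (SE 0.52, edgeR adjusted p = 0.827) and 0.17 (SE 0.56, adjusted p = 0.868). Without WT replicate 1 they were -0.35 and -0.42, with adjusted p = 0.227 and 0.197, and without WT replicate 2 they were 1.16 and 1.19, with adjusted p = 0.00421 and 0.00555. The direction of both genes thus turned with the WT library left out. A long non-coding gene on the opposite strand, 2310002F09Rik, shares 382 exon bases with Klk8 and had 62, 51, 15 and 13 reads in WT replicates 1 and 2 and knockout replicates 1 and 2, and the strand setting of the counting is not given in the sources used here.

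The sequences before the starts of Klk6, Klk8 and Klk10, which hold a shared word, and of Klk13 and Klk14, which had the largest fold changes, are shown to let these promoters of 1 cluster be read side by side. They are the bases before the RefSeq transcription start on GRCm38.p6, plus strand, 5′ to 3′, and 8 of the 10 members had an entry. Of 2 listed starts of Klk6, the downstream one is shown, and its window ends where an annotated exon begins. The last 55 bases before that Klk6 start are therefore not printed, though distances below are counted from the start itself. The last 19 bases of the Klk10 window lie in an exon of the GENCODE gene model, which starts upstream of the RefSeq start. Capitals mark TTAAAA, a word chosen after the sequences were read. The windows are, in the order printed, chr7:43825200-43825394, chr7:43797327-43797576, chr7:43780804-43781053, chr7:43712317-43712566 and chr7:43690168-43690417.
Klk6: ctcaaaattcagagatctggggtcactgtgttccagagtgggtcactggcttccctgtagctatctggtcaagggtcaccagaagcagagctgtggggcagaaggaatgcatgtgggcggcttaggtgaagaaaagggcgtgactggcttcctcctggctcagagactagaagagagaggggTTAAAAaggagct
Klk8: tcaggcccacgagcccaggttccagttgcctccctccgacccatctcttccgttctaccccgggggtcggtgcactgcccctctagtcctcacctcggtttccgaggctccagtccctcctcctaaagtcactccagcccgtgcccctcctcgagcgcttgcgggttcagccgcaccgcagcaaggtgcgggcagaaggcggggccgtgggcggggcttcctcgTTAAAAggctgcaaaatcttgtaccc
Klk10: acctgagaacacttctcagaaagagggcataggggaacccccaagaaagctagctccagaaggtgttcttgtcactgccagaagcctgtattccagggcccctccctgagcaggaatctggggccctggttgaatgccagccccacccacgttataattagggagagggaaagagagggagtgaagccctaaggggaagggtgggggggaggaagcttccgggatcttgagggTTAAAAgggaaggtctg
Klk13: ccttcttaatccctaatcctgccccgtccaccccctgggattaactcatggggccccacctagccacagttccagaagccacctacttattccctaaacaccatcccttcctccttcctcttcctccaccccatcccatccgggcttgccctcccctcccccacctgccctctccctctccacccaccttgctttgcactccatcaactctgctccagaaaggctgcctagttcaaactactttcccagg
Klk14: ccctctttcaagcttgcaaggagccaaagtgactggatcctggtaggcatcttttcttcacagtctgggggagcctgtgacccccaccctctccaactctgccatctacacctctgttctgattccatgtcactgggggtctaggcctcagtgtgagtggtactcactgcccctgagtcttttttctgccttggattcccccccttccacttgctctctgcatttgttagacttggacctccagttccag

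TTAAAA, read on both strands (TTAAAA or TTTTAA), lay 63 to 68 bases before the start of Klk6, 21 to 26 before that of Klk8 and 12 to 17 before that of Klk10, and was absent from the windows of Klk5, Klk7, Klk13, Klk14 and Cdsn and of the other Klk6 start. In Klk10 the word lies within those annotated exon bases. The Klk5 window starts at 43842019, inside its GENCODE gene, which starts at 43841971, so the bases before that gene start were not searched. The Klk5 window holds 49 annotated exon bases. Klk7, Klk13 and Klk14, whose windows lack the word, were also lowest in WT replicate 1. Of 32851 RefSeq promoter windows of 250 bases, 17.7% held this word. The AP-1 word (TGAGTCA or TGACTCA, each the reverse complement of the other), found in 4.46% of windows, and the TATA box word (TATAAA, both strands), found in 12.4%, were in none of the windows of the 8 members. These matches are descriptions of the letters and say nothing of factor binding.

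Klk13 and Klk14 encode kallikreins of trypsin-like specificity, and human KLK14 is known as an activator of other kallikreins. Klk13 (ENSMUSG00000054046, chromosome 7, 43712567 to 43727534, plus strand) measured 2.00 and 21.97 CPM in the WT pair against 54.3 and 53.5 CPM in the knockout pair. The knockout libraries nearly coincided and lay above both WT libraries, which differed 10.98-fold from each other. The log2 fold change was 2.17 (SE 1.10, edgeR adjusted p = 0.312). Without WT replicate 1 it was 1.29 (adjusted p = 0.0160), and without WT replicate 2 it was 4.75 (adjusted p = 0.000211), so that Klk13 was higher in the knockouts against either WT library alone.

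Klk14 (ENSMUSG00000044737, chromosome 7, 43690418 to 43695536, plus strand) was the least abundant member in every library. It had 3 and 9 reads in WT (0.20 and 0.568 CPM) and 28 and 100 reads in the knockouts (1.77 and 6.37 CPM). A floor of 3 reads corresponds to 0.187 to 0.198 CPM per library, so WT replicate 1 was at the floor. Both knockouts lay above both WT libraries, with a log2 fold change of 3.37 (SE 0.92, edgeR unadjusted p = 0.0185, adjusted p = 0.156). Leaving out WT replicate 1 gave 2.82 and leaving out WT replicate 2 gave 4.30. Leaving out knockout replicate 1 gave 4.0 and knockout replicate 2, the high library, 2.18. No adjusted p was under 0.05 in any of these fits. Klk14 shares 287 exon bases with 2310002F09Rik, the antisense gene described above, which was lower in the knockouts.

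Spink5 (ENSMUSG00000055561, chromosome 18, 43963235 to 44022501, plus strand), the gene of the inhibitor LEKTI, measured 912 and 649 CPM in the WT pair against 449 and 417 CPM in the knockout pair. Both knockout values were below both WT values, and Spink5 was the only member with a higher level in WT replicate 1 than in WT replicate 2. Its log2 fold change was -0.85 (SE 0.23), a level 0.555 times that of WT, with an unadjusted p of 0.0190 and an adjusted p of 0.157 in edgeR and an adjusted p of 0.0158 in DESeq2. It was -0.59 without WT replicate 1 (edgeR adjusted p = 0.0861) and -1.07 without WT replicate 2 (adjusted p = 0.00549). In bulk skin, fewer cells that make a transcript and less transcript per cell cannot be told apart, here and for the other members.

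St14 (ENSMUSG00000031995, chromosome 9, 31089402 to 31131853, minus strand), the gene of the activating protease matriptase, measured 124 and 229 CPM in the WT pair against 172 and 216 CPM in the knockout pair. The knockout values lay between the WT values, as for Klk7 (log2 fold change 0.13, SE 0.34, edgeR adjusted p = 0.836). The estimate was -0.24 without WT replicate 1, 0.65 without WT replicate 2 and -0.04 without knockout replicate 2. Cdsn (ENSMUSG00000039518, chromosome 17, 35552128 to 35557180, plus strand), the gene of corneodesmosin, measured 718 and 844 CPM in the WT pair against 510.2 and 585 CPM in the knockout pair. Both knockouts were below both WT libraries, with a log2 fold change of -0.51 (SE 0.19, edgeR unadjusted p = 0.0508, adjusted p = 0.221). The change was -0.63 without WT replicate 1 and -0.39 without WT replicate 2.

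**Figure D2:**
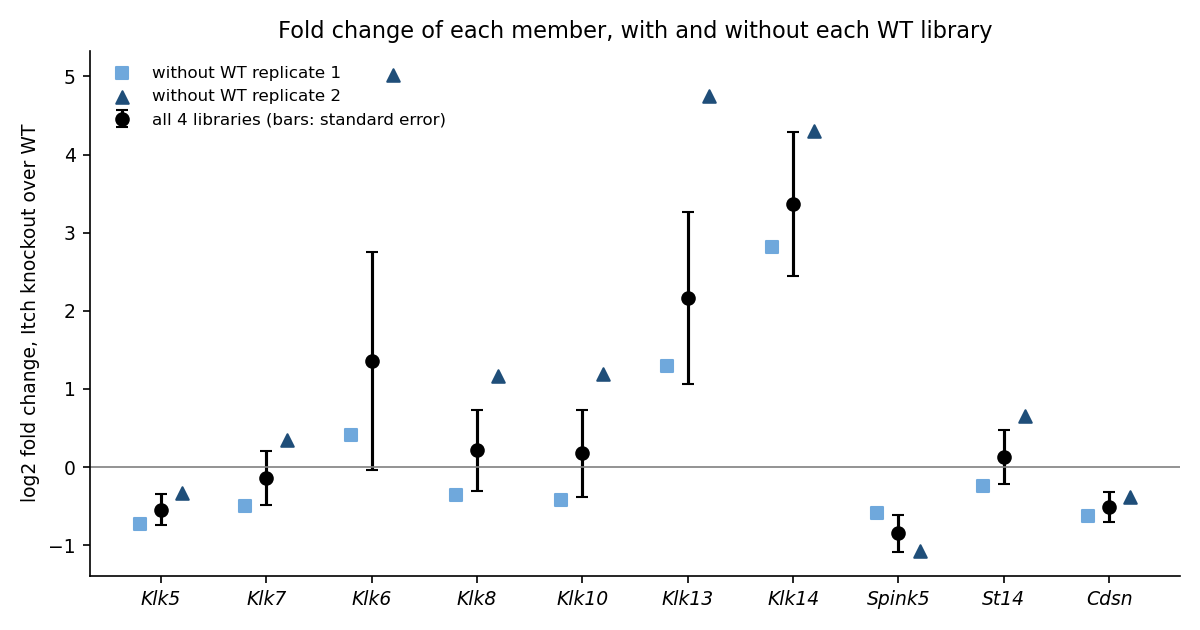
Fitted log2 fold change of each member, knockout over WT, from all 4 libraries with its standard error, and as points without WT replicate 1 and without WT replicate 2. Klk7, Klk8, Klk10 and St14 lie on opposite sides of 0 in the fits without one or the other WT library, while Klk5, Spink5 and Cdsn stay below 0 and Klk6, Klk13 and Klk14 above 0.

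The WT libraries were far apart in several of these genes. In 9 of the 10 members WT replicate 2 was higher than WT replicate 1, where 44.3% of all tested genes were. The ratio was 24.3 for Klk6, 10.98 for Klk13, 3.03 for Klk10, 2.84 for Klk8, 1.84 for St14, 1.79 for Klk7, 1.31 for Klk5 and 1.18 for Cdsn, against 0.712 for Spink5, and none is given for Klk14, which had 3 reads in WT replicate 1. Between the knockout libraries the higher value was 1.01 to 1.38 times the lower in 9 members and 3.60 times in Klk14. The hair follicle markers moved with this gap, with all 10 higher in WT replicate 2 and a summed range of 78.2 to 7879.7 CPM in WT and 5923 to 8664 CPM in the knockouts. The sebaceous gland markers had 6 of 7 higher in WT replicate 2 (482 and 1199.7 CPM summed in WT, 801 and 721 CPM in the knockouts, none at 0), and the muscle markers had 0 of 8. Their part in the differences of the members was not tested. The summed keratinocyte markers ranged from 12158 to 14527 CPM over all libraries, but single markers went opposite ways. Both knockouts lay below both WT libraries for 4 of the 8 and above them for 1, with a median log2 fold change of -0.45. Of all tested genes, 30.0% lay below and 31.2% above. Krt10, a keratin of the suprabasal layers, measured 4274 and 4128 CPM in the WT pair against 2331 and 2756 CPM in the knockout pair (DESeq2 adjusted p = 0.00417, edgeR 0.163). Lor, the cornified envelope gene loricrin, was likewise lower and Krt14, a keratin of the basal layer, higher, with log2 fold changes of -0.67 and 0.88 (DESeq2 adjusted p = 0.00304 and 0.00162, edgeR 0.150 and 0.136). The remaining markers had log2 fold changes of 0.003 (Krt5), 0.23 (Krt1), -0.33 (Trp63), -0.56 (Ivl) and -0.78 (Krt2). Krt10, Lor and Krt14 thus do not stand for all the markers. The part of these markers in the differences of Klk5, Spink5 and Cdsn was not tested.

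**Figure D3:**
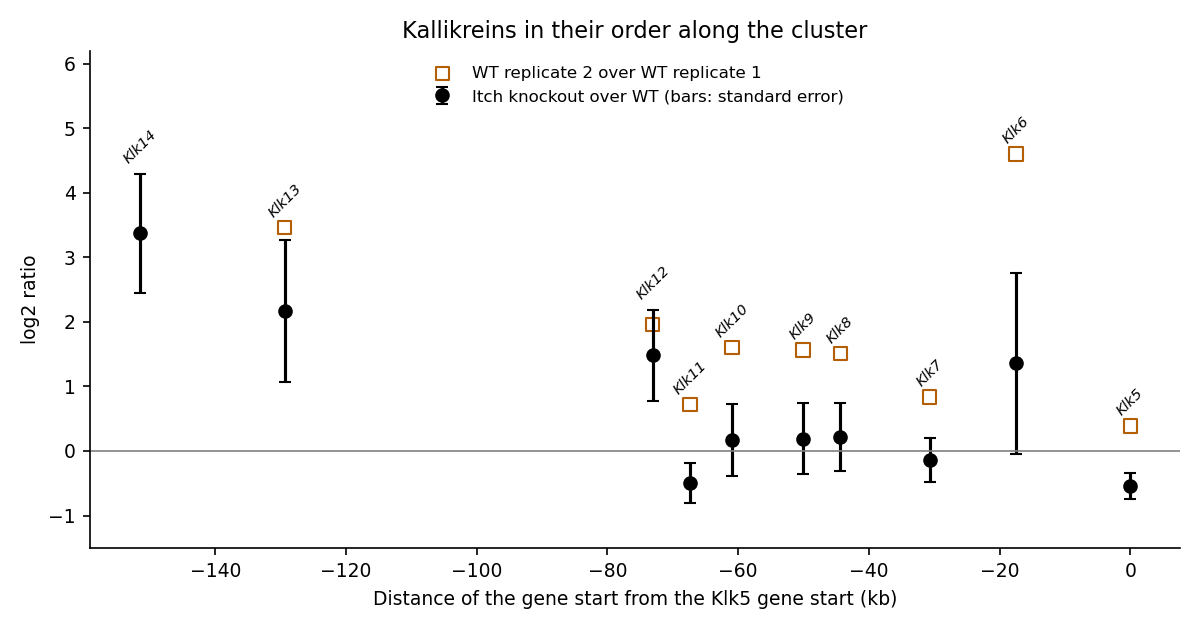
Log2 ratios of the 10 tested kallikreins of the cluster against the distance of each gene start from the Klk5 start in kb, for knockout over WT with its standard error and for WT replicate 2 over WT replicate 1. All squares lie above 0, the highest being that of Klk6, and the square of Klk14 is left out because WT replicate 1 had 3 reads.

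Of 6 other kallikreins listed, 3 passed the filter on low counts, and these lie between members of the cluster. Klk9, between Klk8 and Klk10, measured 42.3 and 125 CPM in the WT pair against 88.4 and 103 CPM in the knockout pair, with the same order of libraries at its ends as Klk8 and Klk10 (WT replicate 1 lowest, WT replicate 2 highest). Klk11 stood at 64.3 and 106 against 68.1 and 52.2 CPM, and Klk12 at 0.533 and 2.08 against 3.79 and 3.57 CPM. None of the 3 had an unadjusted p under 0.05 with all libraries. Without WT replicate 2, Klk9 had a log2 fold change of 1.18 and Klk12 of 2.77. Without WT replicate 1 the log2 fold change was -0.39 for Klk9 and 0.81 for Klk12. Klk12 had 8 and 33 reads in the WT pair. Klk1, Klk4 and Klk15 were below the filter, with 0 to 0.701 CPM in any library. Of the neighbours Klk5 and Klk6, Klk5 had both knockouts below WT and Klk6 had both above.

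Levels can be compared between genes only per length, here as CPM per kilobase of exon (gene models of GENCODE vM21). Klk7 was the most abundant of the 10 in every library, at 396 and 708 in the WT pair against 450.2 and 552 in the knockout pair, and Klk14 the least. Cdsn ranked 2 in both WT libraries and 3 in both knockouts. Klk6 ranked 8 of 10 in WT replicate 1, 4 in WT replicate 2 and 2 in both knockouts, with 7.45, 181, 203 and 279 CPM per kilobase. Spink5 ranked 3 in WT replicate 1, at 191 CPM per kilobase, and 7 in the other 3 libraries, at 136, 93.9 and 87.1. Klk5, Klk8 and Klk10 kept ranks 3 to 6 in all libraries.

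The make-up of the kallikrein reads within a library needs no scaling between libraries. Reads on the 7 kallikrein members numbered 17168 and 37716 in the WT pair against 27310 and 32395 in the knockout pair. Klk6 took 0.984% of them in WT replicate 1 (95% Wilson interval 0.847 to 1.14), 11.5% in WT replicate 2 (11.2 to 11.8), 17.8% in knockout replicate 1 (17.4 to 18.3) and 20.5% in knockout replicate 2 (20.1 to 20.9). Klk5 took 19.9% (19.3 to 20.5) and 12.5% (12.2 to 12.9) in WT, and 10.1% (9.71 to 10.4) and 9.08% (8.78 to 9.40) in the knockouts. The share of Klk6 was thus higher, and that of Klk5 lower, in both knockouts than in both WT libraries. Klk13 took 0.175% (0.122 to 0.249) and 0.923% (0.831 to 1.02) in WT against 3.15% (2.94 to 3.36) and 2.59% (2.43 to 2.77) in the knockouts. Klk7 took 65.6% (64.9 to 66.3) and 56.4% (55.9 to 56.9) against 49.5% (48.9 to 50.1) and 50.7% (50.1 to 51.2). The intervals cover counting error only.

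Proteases were also set against their inhibitor within each library. The summed reads per kilobase of the 7 kallikreins were 3.56 and 10.5 times those of Spink5 in WT, and 11.04 and 14.2 times in the knockouts. WT replicate 1 was the low library, and WT replicate 2 and knockout replicate 1 were close. With 2 libraries a group no exact permutation test can pass a threshold of 0.05, so none was made. The log2 difference between the group means was 0.84. It was 0.26 without WT replicate 1 and 1.82 without WT replicate 2. For Klk5 alone the ratio to Spink5 was 0.896 and 1.65 in WT against 1.38 and 1.61 in the knockouts, and the groups overlapped. For Klk7 alone it was 2.08 and 5.22 against 4.79 and 6.33, again with overlap. Klk7 per Cdsn, a protease and its substrate, was 1.48 and 2.25 in the WT pair against 2.36 and 2.53 in the knockout pair.

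**Figure D4:**
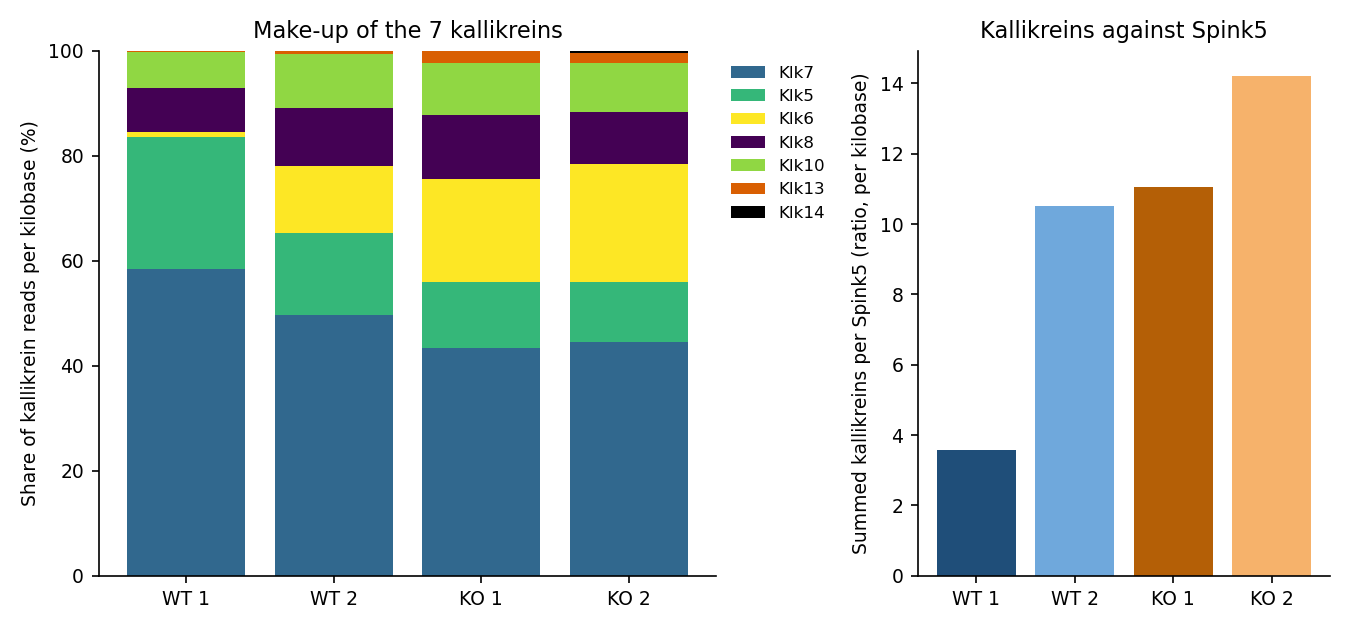
Left, share of each of the 7 kallikreins in their summed reads per kilobase, in percent, in each library (KO, Itch knockout). Right, summed kallikreins over Spink5, both in reads per kilobase, where WT replicate 1 stands at 3.56 and the other 3 libraries between 10.5 and 14.2.

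Other proteases of the upper epidermis lay on both sides of WT. Of 19 listed genes 17 were tested, 0 passed the adjusted threshold, and an unadjusted p under 0.05 was found for 3 higher and 3 lower in the knockouts (median log2 fold change 0.29). DESeq2 called 3 higher and 3 lower. Over all tested genes, 12.0% were higher and 10.9% lower at that unadjusted p, and DESeq2 called 7.99% higher and 6.28% lower. Tmprss11f, a membrane-bound serine protease, measured 82.6 and 74.0 CPM in the WT pair against 26.3 and 16.1 CPM in the knockout pair (a log2 difference of -1.89 with an SE of 0.29, edgeR adjusted p = 0.0787). Its relative Tmprss11a stood at 0.400 and 0.316 against 1.89 and 2.48 CPM, and Plau, encoding urokinase, at 60.5 and 59.0 against 117 and 100.4 CPM. These 3 genes had the smallest p of their list, so the gap between their groups followed from that choice. Over the 17 tested genes, both knockouts lay above both WT libraries for 6 and below them for 4, with overlap for 7. Of all tested genes, 31.2% lay above, 30.0% below and 38.8% overlapped.

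Other protease inhibitors also lay on both sides of WT, with some of the largest differences of the lists. Of 17 listed genes 14 were tested, 0 passed the adjusted threshold, and an unadjusted p under 0.05 was found for 4 higher and 3 lower (median log2 fold change 0.59). DESeq2 called 4 higher and 2 lower, beside 12.0% and 10.9% of all tested genes at that unadjusted p and 7.99% and 6.28% in DESeq2. Lower in both knockouts were Wfdc21, of the WAP-domain family, at 166 and 128 against 74.1 and 78.6 CPM, and Serpina12, encoding vaspin, an inhibitor of KLK7, at 346 and 212 against 78.9 and 111 CPM (a log2 difference of -1.56 with an SE of 0.33, edgeR adjusted p = 0.114). Csta1, of the stefin family of cysteine protease inhibitors, stood at 128 and 125 against 197 and 198 CPM. Slpi, a secreted inhibitor of leukocyte elastase, was named after its values were seen, and stood at 1.07 and 7.39 against 144 and 76.0 CPM (a log2 difference of 4.69 with an SE of 1.02, edgeR adjusted p = 0.121). The 8 immune cell markers, none at 0 in any library, summed to 339 and 318 CPM in WT and 3442 and 1797 CPM in the knockouts, and their part in the Slpi difference was not tested.

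Corneodesmosome parts and other kallikrein substrates were more often lower than higher. Of 18 listed genes 16 were matched and tested, 0 passed the adjusted threshold, and an unadjusted p under 0.05 was found for 2 higher and 7 lower. Of all tested genes, 12.0% and 10.9% did so. Both knockouts lay below both WT libraries for 9 and above them for 3, where 30.0% and 31.2% of all tested genes did, and the median log2 fold change was -0.32. DESeq2 called 2 higher and 5 lower, where it called 7.99% and 6.28% of all the genes it tested. Beside this list, the keratinocyte markers had a median of -0.45, and the 5 fibroblast markers, none at 0, summed to 1185 and 2189 CPM in the WT pair against 8258 and 7794 CPM in the knockout pair, all 5 higher in both knockouts. Their part in the difference was not tested. Dsc1, a desmosomal cadherin of the upper epidermis, measured 454 and 451 CPM in the WT pair against 212 and 221 CPM in the knockout pair (a log2 difference of -1.06 with an SE of 0.15, edgeR adjusted p = 0.0750). Dsg1a, a desmoglein 1 gene named after its values were seen, stood at 1253 and 956 against 539 and 545 CPM, and its near copy Dsg1c at 1.73 and 2.34 against 12.8 and 8.86 CPM. The desmoglein 1 genes are close relatives, so the split of reads between them is uncertain. Camp, whose antimicrobial product cathelicidin is processed by kallikreins, had 4 and 2 reads in WT and 41 and 44 in the knockouts (edgeR adjusted p = 0.0750). The immune cell markers summed to 339 and 318 CPM in WT and 3442 and 1797 CPM in the knockouts. Their part in the Camp difference was not tested. Like Cdsn, the cadherin genes Dsc1, Dsg1a and Dsc3 were lower in both knockouts, whereas Dsg1c was higher. The groups overlapped for Dsg3 and for Dsg1b, another desmoglein 1 gene (63.1 and 86.8 CPM in the WT pair against 67.1 and 58.8 CPM in the knockout pair).

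Lamellar granules carry kallikreins and LEKTI to the cell surface along with barrier lipids. Of 11 genes of these granules and of cholesterol sulfate metabolism, all tested, 0 passed the adjusted threshold, and an unadjusted p under 0.05 was found for 1 higher and 2 lower (median log2 fold change -0.23), near the 12.0% and 10.9% of all tested genes. DESeq2 called 1 higher and 1 lower, beside 7.99% and 6.28% of all the genes it tested. Abca12, a lipid transporter of the granules, measured 327 and 234 CPM in the WT pair against 110.3 and 93.7 CPM in the knockout pair (a log2 difference of -1.46 with an SE of 0.23, edgeR adjusted p = 0.0806). Vps33b, of a trafficking complex needed for granule formation, stood at 40.1 and 31.1 against 22.2 and 22.9 CPM. Ugcg, the glucosylceramide synthase gene, stood at 121 and 134 against 205 and 208 CPM. Abca12 and Vps33b were thus lower, and Ugcg higher, in both knockouts. None had an adjusted p under 0.05 in edgeR, and DESeq2 gave adjusted p = 1.21e-05 for Abca12, 0.00729 for Ugcg and 0.107 for Vps33b.

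The 14 genes named from the protease, inhibitor, corneodesmosome and granule lists had the smallest p of their list or were named after their values were seen. Calls among them therefore say nothing of their lists as a whole. Each kept its direction when 1 library at a time was left out. Some fold changes moved with the WT library left out, as for Slpi (log2 3.89 without WT replicate 1 and 6.68 without WT replicate 2). Others did not, as for Dsc1 (-1.06 in both fits).

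**Figure D5:**
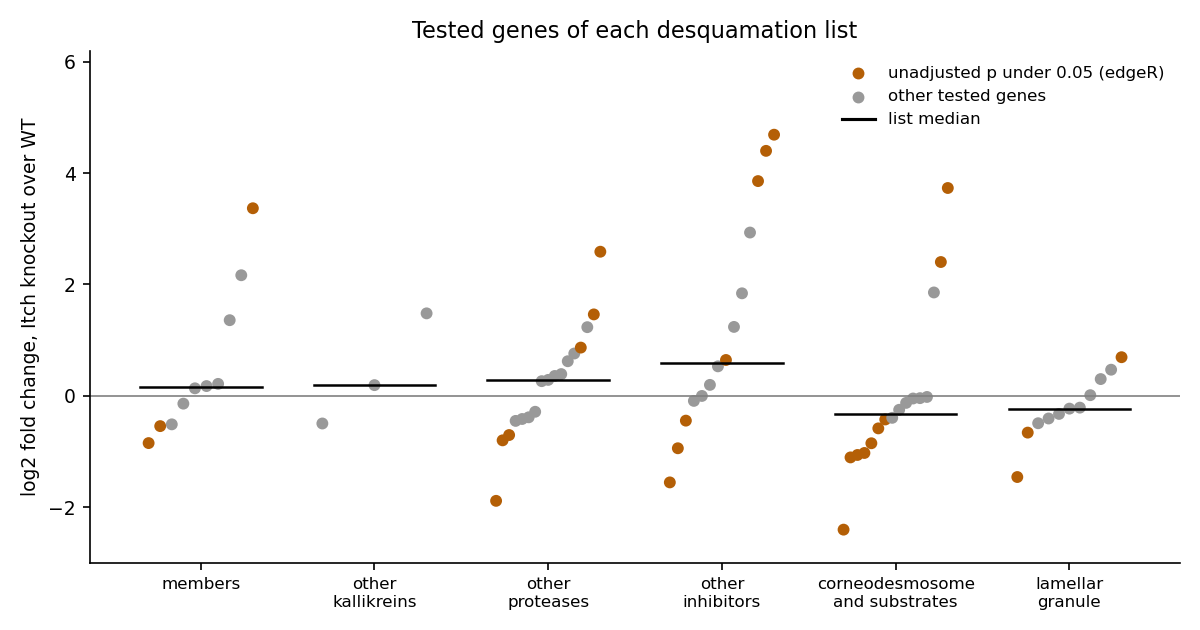
Log2 fold change, knockout over WT, of every tested gene in the 10 members and in 5 lists of related genes, with 1 point per gene, coloured where the unadjusted edgeR p was under 0.05, and a line at each list's median. The lists spread on both sides of 0, with medians between -0.32 for the corneodesmosome and substrate list and 0.59 for the inhibitors.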

How the data were processed

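The deposited values were read counts per Ensembl gene, made by the authors without normalization, in 1 file per library. The submitters' processing notes name HTSeq 0.6.1, SAMtools 0.1.19, TopHat2 and CASAVA 1.8.2, and the mm10 (GRCm38) build. Annotation release and strand setting: not given in the sources used here. Reads without a feature made up 5.68% to 7.45% and ambiguous reads 4.48% to 4.70% of counted reads. These, in 5 special lines, stayed out of library sizes and tests.

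Groups and replicate numbers came from the sample titles. The analysis used edgeR 4.0.16 under R 4.3.3, with filterByExpr (minimum count 10), TMM scaling and a two-sided quasi-likelihood F test (robust=TRUE, legacy=TRUE) over 16651 genes. P-values were adjusted by Benjamini-Hochberg, and 0.05 was the threshold. SE is the absolute log2 fold change over the square root of F. DESeq2 1.42.0 and limma 3.58.1 (voom) were alternatives. The procedure was run on simulated counts that gave every gene the same spread in both groups. The simulation held no gap like that between the WT libraries, so it does not show how the test fares on these data. Libraries of a group differed by more than sampling noise (chi-square per degree of freedom 117 in WT and 25.2 in the knockouts). GENCODE vM21 gave symbols for 37607 of 39179 identifiers, exon lengths and coordinates, and RefSeq (GRCm38.p6) the upstream sequences.

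The members and lists were chosen with earlier results of these data known. Named genes were the members, Itch, the 3 genes with the smallest p of each related list, and from each marker list the one with the highest mean, of which those of hair follicle and keratinocyte are printed. The genes 2310002F09Rik, Slpi, Dsg1a, Lor, Krt14 and Xist were named after their values were seen. So were the further keratinocyte markers Krt1, Krt2, Krt5, Ivl and Trp63 and the cadherin genes Dsg1b, Dsg3 and Dsc3. Gene models of the authors' release may differ in length from those used here.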

Additional observations from a re-analysis of the deposited data

How the results depend on the processing

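Other scalings (RLE size factors or library totals), no filter on low counts, the newer quasi-likelihood fit and leaving out X and Y genes kept the count of members past the adjusted p at 0 and the counts above and below WT at 3 and 3. The count of members at an unadjusted p under 0.05 was 2 with library totals, 2 with no filter and 4 with the newer fit. DESeq2 brought 2 members past the adjusted p and 5 to an unadjusted p under 0.05, where edgeR had 0 and 3. With limma-voom, 5 had an unadjusted p under 0.05. The counts of all genes at that unadjusted p were 3870 with library totals, 4238 with no filter, 3880 with the newer fit and 4088 in DESeq2. Over all genes, 1 passed the adjusted p in edgeR, 488 with no filter, 69 with the newer fit, 2329 in DESeq2 and 0 in limma-voom (3566 at an unadjusted p under 0.05, 3802 in edgeR), and without WT replicate 1 or 2 it was 1317 or 5320. Without knockout replicate 1 or 2 it was 0 in edgeR over all genes, with 1432 and 1501 at an unadjusted p under 0.05. Leaving out 1 library at a time gave 0 to 5 members past the adjusted p, 0 to 7 at an unadjusted p under 0.05, 3 to 7 above WT and 3 to 7 below. The 2 past the adjusted p without WT replicate 1 were Klk5 and Klk13, and the 5 without WT replicate 2 were Klk6, Klk8, Klk10, Klk13 and Spink5. These counts cannot be read as a result about the members. Calls over all genes also rose without WT replicate 1 or 2. With a library left out, the groups can only overlap equally or less. The shares of all tested genes above and below WT, given for all libraries, therefore do not apply to these fits. The median log2 fold change of the members ranged from -0.39 to 0.90, and the log2 difference in kallikreins per Spink5 from 0.26 to 1.82, both highest without WT replicate 2. The latter was 1.06 without Klk7 and 0.84 on raw counts.

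Of 120 recomputed member fold changes, 115 kept their direction and 5 did not. Without WT replicate 1 and without WT replicate 2, the log2 fold change was -0.50 and 0.34 for Klk7, -0.35 and 1.16 for Klk8, -0.42 and 1.19 for Klk10, and -0.24 and 0.65 for St14, which was also at -0.04 without knockout replicate 2. Klk9, which is not a member, was at -0.39 and 1.18. The cause was not tested beyond the library left out.

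The labels share replicate numbers 1 and 2 between groups, but 2 pairs cannot show that the numbers pair the samples (correlation of the deviations of same-numbered libraries 0.17 over 16651 genes). With the replicate block, 0 members passed the adjusted p, 4 had an unadjusted p under 0.05, 3 lay above and 3 below WT, and the median log2 fold change was 0.29. Of all 16651 genes in that fit, 0 passed the adjusted p and 3998 had an unadjusted p under 0.05. Depth limited Klk14 alone among the members, with 3 and 9 reads in WT.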
